A study of Mus musculus with 9 samples.

Results

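The response of wild-type mouse dendritic cells to LPS (bacterial lipopolysaccharide) was taken from 6 of the 9 arrays of the series, 3 arrays of unstimulated cells and 3 arrays of cells given LPS at 100 ng/ml for 4 h. The remaining 3 arrays hold LPS-treated cells with a retroviral hairpin against JmjD2d (Kdm4d), and they entered only the estimate of the spread between arrays (and, where an array was left out, of the replicate term). Both wild-type groups were untransduced dendritic cells grown from bone marrow progenitors over 8 days, with GM-CSF and SCF for 4 days and GM-CSF alone for 4 days. The progenitors came from cultures with IL-3, IL-6 and SCF, and mouse strain, sex and age were not given in the sources used here. The design text names 3 independent cultures, and each array was labelled as a biological replicate numbered 1 to 3. The wild-type arrays were compared across 19938 genes, each read by 1 probe set (the probes that report a gene) on the deposited log2 scale, where a difference of 1 is a 2-fold change.

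LPS is sensed by Toll-like receptor 4 (TLR4), which binds it together with MD-2 after transfer from CD14. The receptor signals from the cell surface through the adaptor MyD88, which leads to NF-kB and MAP kinase activity, and from endosomes through TRIF, which leads to IRF3 activity and type I interferon. Secreted interferon then acts on the same and neighbouring cells through JAK kinases and STAT proteins. In dendritic cells this program is known as maturation: the cells make cytokines, display costimulatory ligands for T cells, change shape and move toward lymph nodes.

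Markers of dendritic cells, macrophages and neutrophils mostly lay above a background level, as did most genes measured. Of 18 measured dendritic cell markers 15 lay above 6.90, the 95th percentile of 1227 olfactory, vomeronasal and taste receptor genes, in both groups. These included Itgax, the integrin CD11c, at group means of 12.98 and 12.94, and the MHC class II gene H2-Ab1 at 13.33 and 13.39 (unstimulated and LPS). Flt3, Xcr1 and Dpp4 lay below that level. Of 15 macrophage and monocyte markers 12 were above it without LPS and 13 with LPS, among them Adgre1, Csf1r and Mrc1, while Cd163 and Timd4 were below it. Of 17 neutrophil and precursor markers 16 were above it without LPS and 17 with LPS. Of 15 lymphocyte markers 4 were above it without LPS (Cd3e, Cd8a, Pax5 and Il7r) and 5 with LPS, and the T and B cell genes Cd3d, Cd4, Cd79a and Ms4a1 were below it in both groups. Of 18 mast cell and basophil markers 6 were above it without LPS (Kit, Hdc, Gata2, Il13, Mitf and Srgn) and 7 with LPS, and Ms4a2 and Fcer1a were below it in both groups. Of 11 progenitor markers 9 were above it without LPS and 8 with LPS, and of 7 plasmacytoid markers 5 in both groups. Of 8 erythroid and megakaryocyte markers 5 were above it without LPS and 6 with LPS. RNA came from whole cultures, so fewer cells of a type and less RNA per cell cannot be told apart.

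Replicate 2 stood apart in both groups. Correlations between arrays of a group across genes, which are not independent, were 0.995 and 0.996 between replicates 1 and 3, and 0.985 to 0.992 for pairs with replicate 2. The LPS response of each replicate, its LPS array minus its unstimulated array, correlated across genes by 0.89 between replicates 1 and 3, by 0.71 between 2 and 3 and by 0.58 between 1 and 2. Of 427 genes called at least 2-fold higher in replicates 1 and 3 (the fit without replicate 2), 419 (98.1%) moved the same way in replicate 2. Their median log2 response was 1.52 over replicates 1 and 3 and 1.09 in replicate 2. Of 580 genes called at least 2-fold lower, 542 (93.4%) moved the same way, with medians of -1.25 and -0.52. Counts below are given with all arrays. For many lists, where leaving out 1 array moves a count by over 1.5 times, that count follows. It is not given for every list, so a count without it need not be stable. The lists were made with earlier results of these data known, so their shares are descriptive.

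Across the 19938 genes, 1035 (5.19%) rose and 1908 (9.57%) fell at an adjusted p under 0.05 (limma, paired by replicate number, Benjamini-Hochberg). At least 2-fold changes were counted for 347 genes that rose (1.74%) and 273 that fell (1.37%). Large changes went mostly upward: 4-fold or more was passed by 89 rises and 16 falls, and 8-fold or more by 33 rises and no fall. The median log2 difference was 0.74 among genes that rose, -0.60 among genes that fell and 0.04 over all genes. All 3 LPS values lay above all 3 unstimulated values in 957 of the 1035 genes that rose, against 12.8% of all genes, and below them in 1743 of the 1908 that fell, against 16.5% of all genes. Without the pairing 796 (3.99%) rose and 1368 (6.86%) fell, of which 759 and 1289 were also called in the paired fit. The split of higher against lower calls depended on the scaling: of the calls 35.2% were higher as deposited, 58.7% (1305 higher, 917 lower) after centring arrays on reference genes and 23.1% (865 higher, 2876 lower) after centring on the sensory receptor genes. Leaving out 1 array gave 336 to 1446 genes higher and 298 to 2942 lower. The fewest were called without LPS replicate 3, and the most without unstimulated replicate 2. Of 419 called genes in the gene lists or among the largest changes, 149 were called in each fit with 1 array left out, and the calls lost were most often lost without LPS replicate 3 (258 genes), unstimulated replicate 3 (244), LPS replicate 1 (220) or unstimulated replicate 1 (209). Without LPS replicate 1 there were 454 higher and 460 lower, without unstimulated replicate 1 539 and 553, and without unstimulated replicate 3 375 and 358.

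**Figure D1:**
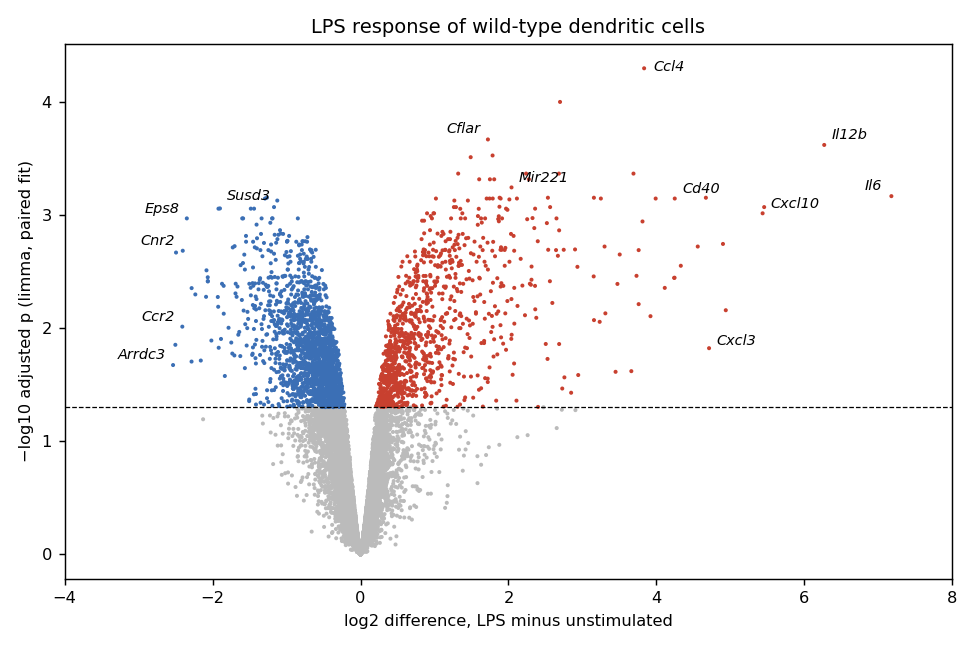
Each of 19938 genes is drawn by its log2 difference (LPS minus unstimulated, horizontal axis) and the negative log10 of its limma adjusted p (vertical axis, dashed line at 0.05). Red points are the 1035 genes called higher and blue points the 1908 called lower, and the red side reaches much further from 0 than the blue.

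The largest rise was that of Il6, an inflammatory cytokine that drives acute phase and B cell responses. Its deposited log2 values were 5.22, 5.85 and 4.90 in unstimulated replicates 1, 2 and 3 and 12.87, 11.73 and 12.91 after LPS, and values of other genes are given in the same order. The groups lay far apart, with the smallest response in replicate 2. The difference was 7.18 (SE 0.40, 95% confidence interval 6.23 to 8.12, limma adjusted p = 0.000684), a 145-fold rise. Il12b, the p40 subunit shared by IL-12 and IL-23, went from 7.21, 7.11 and 7.21 to 13.78, 12.68 and 13.87. Its unstimulated arrays lay close together and the rise was 77.1-fold (log2 difference 6.27, SE 0.24). Cxcl10, a chemokine for activated T cells, went from 8.47, 9.91 and 7.67 to 13.88, 14.34 and 14.14. Unstimulated replicate 2 was the highest of the unstimulated arrays, and the rise was 43.3-fold (log2 difference 5.44, SE 0.38). Ifi205, an interferon-inducible gene of the PYHIN family, rose 43.9-fold. Ccl4, a chemokine for monocytes and T cells, gave the smallest adjusted p of all genes (5.08e-05), with values of 8.77, 8.70 and 8.75 without LPS and 12.52, 12.50 and 12.70 with LPS. All arrays of a group lay close together, and the rise was 14.3-fold.

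Ptgs2, the inducible cyclooxygenase of prostaglandin synthesis, went from 9.01, 10.47 and 8.68 to 14.02, 13.68 and 14.14. Cd40, the receptor through which T helper cells license dendritic cells, went from 8.50, 8.20 and 8.26 to 12.73, 12.12 and 12.85, with no overlap and a 19-fold rise. Tnfsf15, a T cell costimulating cytokine of the TNF family, went from 7.08, 7.62 and 7.57 to 12.98, 10.98 and 13.01, and its LPS value in replicate 2 was below the others. Il1f6, which encodes IL-36 alpha, went from 6.52, 6.90 and 6.30 to 11.21, 10.45 and 10.40. The other genes among the 20 largest rises were Cxcl2, Cxcl3, Ifit2, Rsad2, Ifit1, Il1b, Gbp5, Nos2, Cmpk2, Il12a and the Mir155 locus, described with their groups. Of the 20, Cxcl2, Cxcl3, Nos2 and Il12a lost their call in at least 1 fit with 1 array left out.

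The largest fall was that of Arrdc3, an arrestin-like adaptor that directs membrane receptors to degradation, with values of 10.02, 9.37 and 10.52 without LPS and 7.25, 7.45 and 7.61 with LPS. The groups did not overlap, unstimulated replicate 2 was the lowest of its group, and the log2 difference was -2.54 (SE 0.51, limma adjusted p = 0.0212). Scel (-2.50), Cables1, a cyclin-dependent kinase adaptor (-2.50), Ccr2 (-2.41), Cnr2 (-2.40) and Eps8, an actin capping and bundling protein (-2.35), followed. Lpin1, a phosphatidate phosphatase, had a log2 difference of -2.29, Sesn1, a stress-induced restraint on mTORC1, -2.23, and Rab7b, a small GTPase of the late endosome, -2.09. Tmem53 had the same value, 7.93, in all 3 LPS arrays, against 10.20, 9.26 and 10.52 without LPS. Cd300lb, Sh2d1b1, Kcne3, Tcp11l2, Gcnt1, Arhgap18, Mblac2, the checkpoint kinase gene Chek2, Susd3 and Tifab completed the 20 largest falls, with differences of -2.08, -2.28, -2.16, -2.07, -2.06, -2.02, -1.93, -1.93, -1.92 and -1.92. These falls were far smaller than the largest rises, and unstimulated replicate 2 was the lowest of its group for each of the 20. The calls of Cables1, Cnr2, Eps8, Sesn1, Rab7b, Tmem53, Cd300lb, Sh2d1b1, Tcp11l2, Gcnt1, Mblac2, Chek2 and Susd3 held in every fit with 1 array left out, and those of Arrdc3, Scel, Ccr2, Lpin1, Kcne3, Arhgap18 and Tifab did not.

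**Figure D2:**
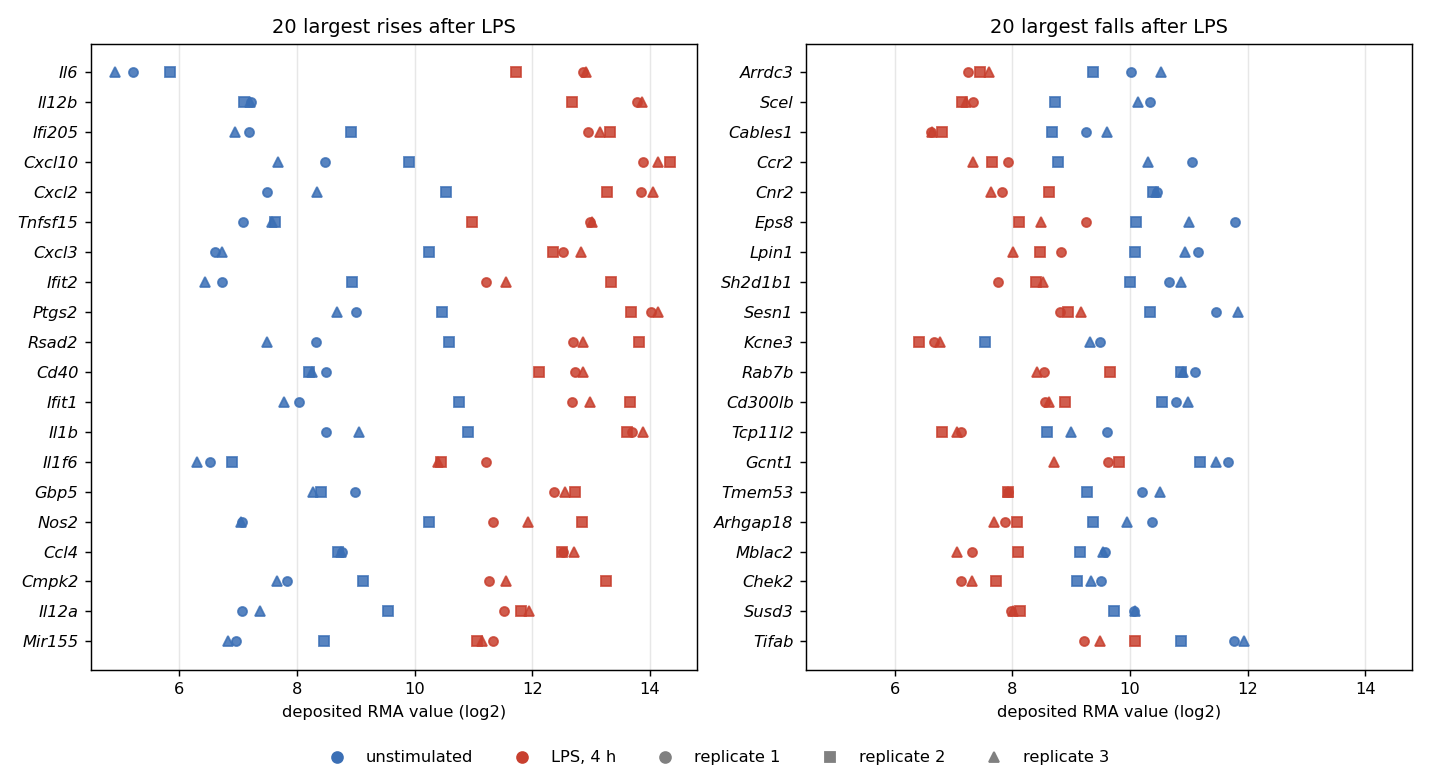
Deposited log2 values of the 6 wild-type arrays for the 20 named genes with the largest rise (left) and the largest fall (right), blue for unstimulated and red for LPS, with a circle, square or triangle for replicates 1, 2 and 3. Red and blue points are apart in every gene shown, and the blue square of replicate 2 lies nearest to the red points in many of them, such as Cxcl3 and Scel.

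The promoters of 4 leading genes are shown because they hold, alone or together, letter patterns known from NF-kB and interferon targets. Sequences are from RefSeq on GRCm38.p6, the 250 bases before the gene's start, on the strand of the gene. Capitals mark matches on either strand to a kB pattern (GGGA, any 4 bases, then CC) or an interferon-stimulated response element (ISRE: GAAA, any 2 bases, then GAAA). Cxcl10 (chr5:92348890-92349139, minus strand) held 2 kB matches and 1 ISRE match. Il6 (chr5:30012864-30013113, plus strand) held 2 overlapping kB matches and 0 ISRE matches. Ifit1 (chr19:34640639-34640888, plus strand) held 2 ISRE matches and 0 kB matches, and Gbp5 (chr3:142496684-142496933, plus strand) held 1 of each.
Cxcl10: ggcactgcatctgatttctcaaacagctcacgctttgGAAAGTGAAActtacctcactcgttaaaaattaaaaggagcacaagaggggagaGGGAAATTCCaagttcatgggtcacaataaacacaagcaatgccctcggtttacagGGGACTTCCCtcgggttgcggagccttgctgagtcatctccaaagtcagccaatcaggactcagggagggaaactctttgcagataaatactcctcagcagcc
Il6: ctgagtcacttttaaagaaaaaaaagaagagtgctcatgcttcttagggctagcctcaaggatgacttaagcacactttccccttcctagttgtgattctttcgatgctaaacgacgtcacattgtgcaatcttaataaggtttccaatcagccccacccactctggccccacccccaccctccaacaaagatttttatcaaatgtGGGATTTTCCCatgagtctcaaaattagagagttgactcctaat
Ifit1: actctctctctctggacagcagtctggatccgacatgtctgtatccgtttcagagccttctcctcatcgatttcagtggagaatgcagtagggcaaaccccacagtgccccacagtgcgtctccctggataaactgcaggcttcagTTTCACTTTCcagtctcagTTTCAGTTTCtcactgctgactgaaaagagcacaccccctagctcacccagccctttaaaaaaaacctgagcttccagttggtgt
Gbp5: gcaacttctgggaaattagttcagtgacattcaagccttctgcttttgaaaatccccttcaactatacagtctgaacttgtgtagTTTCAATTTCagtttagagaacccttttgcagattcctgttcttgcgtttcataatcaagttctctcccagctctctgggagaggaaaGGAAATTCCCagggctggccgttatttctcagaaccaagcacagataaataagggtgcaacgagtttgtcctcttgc

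A promoter was matched for 15563 of the measured genes, with a window of 250 bases before and 50 after the start. The ISRE pattern stood in 3.3% of all these promoters, in 7.0% of those of genes that rose, in 20.9% (14 of 67) of those that rose at least 4-fold and in 2.1% of those that fell. Among promoters of the antiviral effector list it stood in 43.6% (17 of 39). The kB pattern, which is short and common, stood in 23.6% of all promoters, 29.2% of those of genes that rose and 23.6% of those that fell. It stood in 57.1% (12 of 21) of promoters of the NF-kB regulator list, 50% (13 of 26) of secreted cytokines and 45.0% (9 of 20) of chemokines. The AP-1 pattern TGANTCA stood in 7.0% of all promoters, 7.7% (63 of 814) of those of genes that rose and 5.0% of those that fell. Among rises of at least 4-fold it stood in 17.9% (12 of 67). The FoxO pattern GTAAACA stood in 3.0% of all, 2.9% of those that rose and 3.0% of those that fell. Among rises of at least 4-fold it stood in 6.0% (4 of 67). Median GC content was 57.7% over all promoters, 61.0% for genes that rose, 52.3% for rises of at least 4-fold, 60.3% for genes that fell, 51.3% for antiviral effectors and 63.0% for the NF-kB regulator list. The patterns contain different amounts of G and C, and the part of base composition in these shares was not tested. A match describes letters, and does not show that a factor binds there.

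The loci of 4 microRNAs rose and that of 1 fell at least 2-fold, and mature sequences are shown because microRNAs act through the seed at bases 2 to 8, here in capitals (RefSeq, GRCm38.p6). The array reads transcript at the locus, which is the precursor or its host RNA, and not the mature microRNA.
miR-155-5p: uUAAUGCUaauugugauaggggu
miR-146a-5p: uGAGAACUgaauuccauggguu
miR-221-3p: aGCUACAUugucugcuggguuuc
miR-222-3p: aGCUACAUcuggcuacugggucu
miR-181b-5p: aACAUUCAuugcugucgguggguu

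The Mir155 locus (chromosome 16) lies in a host RNA known to be induced by NF-kB and AP-1, and miR-155 represses negative regulators such as SHIP1 and SOCS1. It went from 6.97, 8.46 and 6.83 to 11.33, 11.06 and 11.15, a 13.6-fold rise (log2 difference 3.76, SE 0.35, limma adjusted p = 0.00205), with unstimulated replicate 2 the highest of its group. The Mir146 locus (chromosome 11), whose product represses TRAF6 and IRAK1, rose by 1.81 (SE 0.31). Mir221 and Mir222 are neighbours on chromosome X, and their products share the seed GCUACAU printed above. Mir221 went from 7.10, 7.43 and 7.20 to 9.07, 9.37 and 9.40 and Mir222 from 6.93, 6.92 and 6.83 to 8.81, 9.02 and 8.81, differences of 2.04 and 1.99 with little spread between replicates. Mir181b-1 fell by 1.41 (limma adjusted p = 0.0474, 0.07 without pairing), with LPS values of 7.0, 8.81 and 7.19 in which replicate 2 stayed near the unstimulated 9.09, 9.11 and 9.04. Mir155, Mir221 and Mir222 were called in each fit with 1 array left out, and Mir146 and Mir181b-1 were not. Of 291 measured microRNA loci 7 (2.41%) rose and 1 (0.34%) fell, both smaller shares than the 5.19% and 9.57% of all genes.

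Secreted cytokines rose in 17 of 39 measured members and fell in 1, with a median log2 difference of 0.66. Beside those above, Il1b, an inflammasome-processed cytokine, went from 8.50, 10.91 and 9.06 to 13.69, 13.61 and 13.89, and unstimulated replicate 2 was the highest of its group. Il12a, the partner of Il12b in IL-12, rose by 3.76 (SE 0.51) and Il27, a regulator of T cell differentiation, by 2.53 (SE 0.15). Tnf, an early inflammatory cytokine, went from 11.20, 11.91 and 11.71 to 14.03, 13.71 and 14.12, a 5.09-fold rise from an already high level. Edn1, the vasoconstrictor endothelin 1, rose by 3.15, Inhba, the activin A subunit, by 2.94, Csf3 by 2.53 and Lif by 1.85. Tnfsf14, the lymphotoxin-like ligand LIGHT, was the single member that fell, by 1.62. Il23a, the subunit that makes IL-23 with Il12b, went from 7.08, 6.75 and 7.0 to 10.58, 7.58 and 10.84 and did not pass (limma adjusted p = 0.0527). Replicate 2 responded by 0.83 and the others by 3.50 and 3.83. Ifnb1, interferon beta, had a difference of 0.35 (95% confidence interval -0.05 to 0.76) and Il10 of 0.46 (95% confidence interval 0.07 to 0.85), and neither passed (limma adjusted p = 0.228 and 0.117). Leaving out LPS replicate 1 or unstimulated replicate 1 left 8 members higher, without LPS replicate 3 there were 7 and without unstimulated replicate 3 there were 9, while 2 fell without LPS replicate 2. Il6, Il12b and Tnfsf15 kept their call in each of these fits. In each fit with 1 array left out Il1b, Il27, Tnf, Edn1 and Tnfsf14 were called, and Il12a, Inhba, Csf3 and Lif lost their call in at least 1. Limma without pairing gave an adjusted p of 0.0629 for Csf3.

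Chemokines rose in 11 of 29 members and fell in 0 (limma, also 0 at an unadjusted p under 0.05), with a median of 0.62. Cxcl2 and Cxcl3, both neutrophil attractants, showed a high unstimulated replicate 2: Cxcl2 went from 7.49, 10.53 and 8.34 to 13.85, 13.28 and 14.05, and Cxcl3 from 6.60, 10.24 and 6.73 to 12.52, 12.35 and 12.84. Their differences of 4.94 (SE 0.69) and 4.71 (SE 0.85) passed the test with the largest standard errors of the 20 largest rises. Ccl5, which attracts T cells and eosinophils, went from 10.16, 12.04 and 9.78 to 13.76, 13.69 and 14, again with a high unstimulated replicate 2. Cxcl9, a partner of Cxcl10 at the receptor CXCR3, rose by 2.56 (SE 0.30), Cx3cl1, the membrane-bound fractalkine, by 1.68 (SE 0.12) and Cxcl16, a ligand and scavenger receptor, by 1.74 (SE 0.36). Ccl3, a neighbour of Ccl4, rose by 0.45 (SE 0.06) and Ccl2, the monocyte attractant, by 0.62 (SE 0.16), the latter with overlapping groups. Without LPS replicate 3 there were 4 chemokines called, and without LPS replicate 1 or either of unstimulated replicates 1 and 3 there were 7. With any 1 array left out Cxcl9 and Cx3cl1 were still called, and Cxcl2, Cxcl3, Ccl5, Cxcl16, Ccl3 and Ccl2 were not in 1 or more of these fits. The adjusted p in limma without pairing was 0.0804 for Ccl2.

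The receptor and its proximal signalling genes moved in both directions. Of 28 genes of the TLR4 complex and its adaptors 10 rose and 2 fell. Tlr4 itself fell by 0.51, with 11.59, 12.20 and 11.84 against 11.04, 11.82 and 11.24. Each replicate fell but the groups overlapped, and limma's adjusted p was 0.0482 with pairing and 0.169 without. Cd14, the LPS transfer protein, went from 10.05, 11.66 and 10.26 to 13.04, 12.88 and 13.17, a 5.19-fold rise. Peli1, an E3 ubiquitin ligase of IRAK and TRIF signalling, rose by 2.11 (SE 0.13), and Ikbke and Tbk1, the kinases of IRF3, by 1.68 and 0.72. Irak2 rose by 1.13 and Irak3, the inhibitory IRAK-M, by 1.21, while Irak1 fell by 0.42. Ticam2, the TRAM adaptor of the endosomal branch, rose by 0.93. Tlr2, the lipoprotein receptor, went from 11.67, 12.55 and 12.11 to 13.33, 13.64 and 13.52 and Tlr1, its partner, rose by 1.16 (limma adjusted p = 0.043, 0.196 without pairing), while Tlr13 fell by 0.55. With LPS replicate 3 or unstimulated replicate 3 left out 7 of the 28 were higher and 0 lower, without LPS replicate 2 there were 10 and 4, without LPS replicate 1 7 and 1, and without unstimulated replicate 1 or 2 there was 1 lower member. Centring on reference genes gave 13 higher and 0 lower. Of these genes Peli1, Ikbke, Tbk1, Irak2, Ticam2 and Tlr2 passed in all fits with 1 array left out, and Tlr4, Cd14, Irak3, Irak1, Tlr1 and Tlr13 failed in 1 or more.

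Genes of the NF-kB family and its regulators were the list with the largest share that rose: 19 of 24 rose and 0 fell (limma, also 0 at an unadjusted p under 0.05), the median log2 difference was 1.11, and 16 of the 19 were called in each fit with 1 array left out. Nfkbiz, the nuclear co-activator IkB zeta that is needed for a second wave of targets such as Il6, went from 7.98, 8.56 and 7.65 to 11.95, 10.56 and 12.11, a 11.1-fold rise. Tnfaip3, the deubiquitinase A20 that ends NF-kB signalling, went from 9.65, 10.12 and 9.68 to 12.74, 12.06 and 12.71. Nfkbia, the inhibitor IkB alpha, rose by 1.79 (SE 0.16) and the adaptor Traf1 by 2.75 (SE 0.26). Of the subunits, Nfkb2 (p100, 1.65), Relb (1.23), Rel (1.11) and Rela (0.48) rose. Other members that rose were Bcl3 (1.35), Nfkbib (1.29), Nfkbie (1.12), Tnip1 (1.57) and Tnip3 (1.22), which inhibit or tune the pathway. The median response of the list was 0.87 in replicate 2 and 1.20 in replicates 1 and 3.

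Other feedback genes rose in part. In the SOCS family, which blocks JAK and cytokine receptor signalling, Socs3 rose by 1.67 (SE 0.22), Socs1 by 1.01 and Socs7 by 0.37. Socs6 fell by 1.10 through 1 of its 3 probe sets, as called in the fit with 1 probe set per gene. With each probe set tested singly none of the 3 passed. There the set used had a limma adjusted p of 0.0509, the set with a difference of -1.26 had 0.0688 and the set near 0 had 0.983. Without LPS replicate 3 or unstimulated replicate 3 only 1 member rose, and the fall of Socs6 was called in no fit with 1 array left out except that without unstimulated replicate 2. Among MAP kinase phosphatases 3 of 14 rose and 4 fell: Dusp16 (1.52), Dusp4 (1.49) and Dusp2 (0.76) rose, and Dusp18 (-1.34), Dusp7 (-1.16), Dusp6 (-1.03) and Dusp3 (-0.51) fell. The 3 rises were not called without LPS replicate 1, LPS replicate 3 or unstimulated replicates 1 or 3. Falls numbered 2 without LPS replicate 3 or unstimulated replicate 3, and 5 rises and 6 falls were called without unstimulated replicate 2. Without pairing 2 rose and 2 fell. Of the proteins that destroy cytokine mRNA, Zc3h12c rose by 1.89 (SE 0.23), Zc3h12a (Regnase-1) by 1.60 (SE 0.38) and Zfp36 (tristetraprolin) by 0.90 (SE 0.06), while Zfp36l2 fell by 0.60. Of 29 immediate-early and AP-1 genes 6 rose and 3 fell. Maff (2.36), Nr4a3 (1.97), Batf (1.09), Atf3 (0.93), Batf2 (0.72) and Junb (0.67) rose. Fos (-0.79), Jun (-0.51) and Egr2 (-0.55), which are classically induced within minutes and decline within hours, fell, as measured at 4 h. The AP-1 list had 2 rises and 1 fall without LPS replicate 1 or 3, 3 and 1 without unstimulated replicate 3, and 12 and 5 without unstimulated replicate 2. The calls of Socs3, Dusp18, Dusp7, Zc3h12c, Zfp36, Zfp36l2, Atf3 and Fos held in every fit with 1 array left out, and those of Socs1, Socs7, Socs6, Dusp16, Dusp4, Dusp2, Dusp6, Dusp3, Zc3h12a, Maff, Nr4a3, Batf, Batf2, Junb, Jun and Egr2 did not. Without pairing, limma's adjusted p was 0.0561 for Socs1, 0.0567 for Socs6, 0.138 for Dusp2, 0.0858 for Dusp6, 0.229 for Dusp3, 0.145 for Nr4a3 and 0.0623 for Jun.

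The interferon program rose broadly. Of 46 antiviral effectors 34 rose and 0 fell (limma, also 0 at an unadjusted p under 0.05), with a median of 0.97. Ifit1, which binds viral RNA caps, went from 8.04, 10.76 and 7.78 to 12.68, 13.65 and 12.98, and Ifit2 from 6.72, 8.93 and 6.44 to 11.21, 13.35 and 11.55. Rsad2 (viperin) rose by 4.33 (SE 0.46), its neighbour Cmpk2, a mitochondrial nucleotide kinase, by 3.81 (SE 0.29), Oasl1 by 2.52 (SE 0.19) and Isg20 by 1.93 (SE 0.23). Without pairing 18 of the 46 rose. With 1 array left out 18 (unstimulated replicate 3), 19 (LPS replicate 3), 21 (LPS replicate 1), 22 (unstimulated replicate 1) or 29 (LPS replicate 2, or unstimulated replicate 2 with 1 lower) were called. Of 11 interferon-inducible GTPases 6 rose, and 1 fell without unstimulated replicate 2. Gbp5, which coats intracellular bacteria and promotes inflammasome activity, went from 8.98, 8.41 and 8.27 to 12.37, 12.73 and 12.55, and Mx1 (2.93, SE 0.31) and Mx2 (3.50, SE 0.34), which trap viral particles, rose. The signalling genes of the pathway followed: Irf7 (2.19, SE 0.26), Irf1 (1.64, SE 0.12), Jak2 (1.43, SE 0.12), Stat5a (1.23, SE 0.19), Stat2 (0.99, SE 0.17) and Irf9 (0.67, SE 0.10) were among 7 of 17 that rose, 4 without pairing. A second probe set of Irf1 had a difference of 0.26 and did not pass. The receptor subunit Ifnar1 rose by 0.70 (SE 0.11), and Ifngr1 of the interferon gamma receptor fell by 0.78. The IRF, STAT and JAK list had 3 rises without LPS replicate 1, LPS replicate 3 or unstimulated replicate 3, and 2 falls without unstimulated replicate 2. In each fit with 1 array left out Ifit1, Ifit2, Rsad2, Cmpk2, Oasl1, Isg20, Gbp5, Mx1, Mx2, Irf7, Irf1 and Jak2 were called, and Stat5a, Stat2, Irf9, Ifnar1 and Ifngr1 lost their call in at least 1. Limma without pairing gave an adjusted p of 0.0959 for Isg20, 0.13 for Irf7 and 0.07 for Stat2.

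Unstimulated replicate 2 lay above the mean of replicates 1 and 3 in 42 of the 46 antiviral effectors, by a median log2 of 0.58, and LPS replicate 2 lay above the LPS mean in 43, by 1.04. For the 11 interferon-inducible GTPases this held in 7 without LPS, with a median of 0.15, and in 11 with LPS, with a median of 1.7. Irf7 shows the shift: its values were 7.81, 10.19 and 7.83 without LPS and 9.92, 12.30 and 10.17 with LPS, so that replicate 2 started above the LPS values of both other replicates while its response was 2.12 and theirs 2.11 and 2.34. The groups overlapped, and limma's adjusted p was 0.00422 with pairing and 0.13 without. Ifit3b responded by 4.36 in replicate 2 and by 0.83 and 2.01 in replicates 1 and 3, with LPS values of 5.88, 11.10 and 6.97. Tnfsf10, the death ligand TRAIL and an interferon target, responded by 4.88, against 1.65 and 1.65. The adjusted p in limma without pairing was 0.284 for Ifit3b and 0.13 for Tnfsf10. The median response of the GTPases was 2.99 in replicate 2 and 0.96 over replicates 1 and 3.

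Of the 427 genes called at least 2-fold higher in replicates 1 and 3, unstimulated replicate 2 lay above the mean of unstimulated replicates 1 and 3 in 294, and in 78 of them by at least 2-fold. Over all genes it lay above that mean in 11065 of 19938. These 427 genes were chosen on replicates 1 and 3, which partly fixes where replicate 2 lies. Acod1, the itaconate-making enzyme, had unstimulated values of 9.60, 13.02 and 9.42 and LPS values of 14.05, 14.15 and 14.17, so that replicate 2 rose by 1.13 and replicates 1 and 3 by 4.46 and 4.75. Nos2 went from 7.06, 10.24 and 7.04 to 11.33, 12.85 and 11.92. After LPS the 3 replicates lay close together for Acod1, and replicate 2 was the highest for Nos2. Among the 580 genes called at least 2-fold lower, unstimulated replicate 2 lay above the mean of the others in 88, and LPS replicate 2 lay above it in 482, against 8170 of 19938 over all genes; the same choice applies.

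Other genes responded almost alike in every replicate. Of the genes called at least 2-fold changed, Nod2, Slc43a2, Cxcl9, Cflar, Ctdsp2, Tet2, Cemip2, Marcksl1, Klri1 and Vcan had the smallest standard deviation of their 3 pair differences. Tet2, a DNA demethylating enzyme, responded by 1.14, 1.25 and 1.24, and Nod2, a sensor of bacterial muramyl dipeptide, by 1.27, 1.26 and 1.25. At the other end stood Cxcl3, Acod1, Cxcl2, Ifit3b, Tnfsf10, Inhba, Cfb, Ccl5, Tnfsf15 and Slc7a2, the 10 called genes with the widest range. Cfb, complement factor B, responded by 3.82, 0.90 and 3.82 (limma adjusted p = 0.0373, 0.0856 without pairing).

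**Figure D3:**
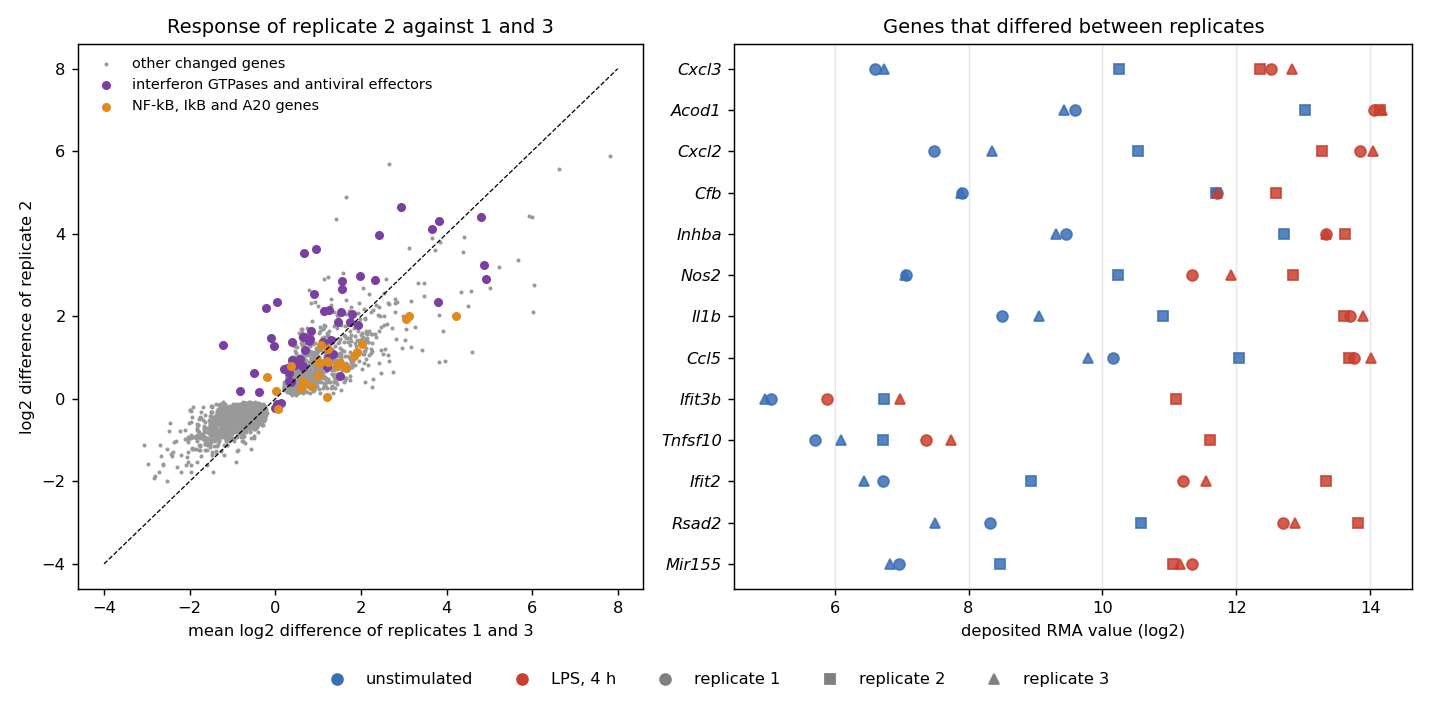
Left, for genes called in the paired fit, the log2 response of replicate 2 (vertical axis) against the mean of replicates 1 and 3 (horizontal axis) with the line of equality, purple for interferon GTPases and antiviral effectors and orange for NF-kB regulators, with all measured members of these lists shown. Right, deposited log2 values of genes with wide spread between replicates, blue for unstimulated and red for LPS, with squares for replicate 2: the blue square is high for Cxcl3 (10.24) and Acod1 (13.02), and the red square is high for Ifit3b (11.10) and Tnfsf10 (11.61).

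Ligands seen by T cells rose in 12 of 25 members and fell in 3, with a median of 0.74. Beside Cd40, Cd83, a surface marker of mature dendritic cells, rose by 1.78 (SE 0.17), Cd86, the ligand of CD28, by 1.28 (SE 0.18), and Cd80, its partner, by 0.52 (SE 0.09). Icam1, the adhesion ligand of LFA-1, rose by 1.60 (SE 0.08), Pvr, a ligand of CD226 and TIGIT, by 1.62 (SE 0.21), and Cd274, the inhibitory PD-L1, by 0.85 (SE 0.08). The inhibitory receptors or ligands that fell were Vsir (VISTA), from 12.57, 12.16 and 12.49 to 11.04, 10.99 and 10.98, Havcr2 (TIM-3), by 1.05, and Cd276 (B7-H3), by 0.62. Without LPS replicate 3 the list had 7 higher and 1 lower, without unstimulated replicate 3 8 and 1, and without unstimulated replicate 1 9 and 1. Of these genes Cd83, Icam1, Pvr, Cd274 and Vsir passed in all fits with 1 array left out, and Cd86, Cd80, Havcr2 and Cd276 failed in 1 or more. Of 15 genes of MHC class I peptide loading 6 rose and 0 fell (limma, 1 at an unadjusted p under 0.05), led by Tap1, a peptide transporter subunit, with 10.05, 10.04 and 9.57 and 10.97, 11.83 and 10.93. Tap2 (0.73), Tapbpl (0.73), Psme1 (0.39), Psme2 (0.74) and the immunoproteasome gene Psmb8 (0.58) were the others. Of these 6, 2 were called without LPS replicate 3 and 3 without unstimulated replicate 3. Of 14 class II genes 1 rose and 1 fell, H2-Eb2 (1.72) and H2-DMa (-0.48), and limma without pairing called neither (adjusted p = 0.167 and 0.251). Without LPS replicate 1 or 3 or unstimulated replicate 1 or 3 the class II list had 0 rises and 0 falls. The median over the class II list was 0.03.

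Genes of cell shape and of migration changed in opposing directions. Of 42 actin and dendrite genes 11 rose and 4 fell. Fscn1, the actin bundler of dendrites, went from 8.62, 8.11 and 8.19 to 11.29, 10.22 and 11.09, a 5.91-fold rise, and Marcksl1 (2.24, SE 0.10), Marcks (1.06, SE 0.10), the RhoA exchange factor Arhgef3 (1.41, SE 0.10) and Cdc42ep2 (1.27, SE 0.17) rose too. Eps8 went from 11.79, 10.11 and 11.01 to 9.25, 8.12 and 8.49, falling in each replicate by similar amounts, and Cdc42ep3 fell by 1.78. Without pairing 7 rose and 3 fell. With 1 array left out the list had 5 to 13 rises and 1 to 6 falls, the fewest rises without LPS replicate 3, 6 without LPS replicate 1 or unstimulated replicate 3, and 8 without unstimulated replicate 1. Falls numbered 1 without LPS replicates 1 or 3 and 2 without unstimulated replicates 1 or 3. The calls of Fscn1, Marcksl1, Marcks, Arhgef3, Cdc42ep2 and Eps8 held in every fit with 1 array left out, and that of Cdc42ep3 did not.

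Chemoattractant receptors divided evenly, with 6 of 24 higher and 6 lower. Ccr7, the receptor that guides maturing dendritic cells to lymph nodes, went from 10.71, 9.25 and 9.18 to 11.54, 11.01 and 11.08. It rose in each replicate, by 0.84, 1.75 and 1.90, and passed only in the paired fit (limma adjusted p = 0.0179, 0.154 without pairing). Ccrl2, a non-signalling receptor that binds chemerin, went from 9.78, 10.28 and 9.35 to 12.96, 13.09 and 13.11, a 9.51-fold rise called in each fit with 1 array left out. Ccr4 rose by 1.77 (SE 0.29) and Cx3cr1, the fractalkine receptor, by 1.26 (SE 0.24). Ccr2, which brings monocytes from marrow to tissue, went from 11.06, 8.78 and 10.31 to 7.93, 7.66 and 7.33, with a low unstimulated replicate 2. Cxcr4, the receptor for marrow retention, went from 10.58, 11.49 and 9.65 to 8.96, 9.72 and 8.36. Its replicates fell by similar amounts from different levels, so that the groups overlapped (limma adjusted p = 0.00304, 0.0833 without pairing). Ccr1 (-1.14, SE 0.19), Ltb4r1, a leukotriene B4 receptor (-1.11, SE 0.09), C3ar1 (-0.91) and C5ar2 (-0.64) also fell, and C5ar1 rose by 0.71. The list had 1 rise and 2 falls without LPS replicate 3 or unstimulated replicate 3, 2 and 3 without LPS replicate 1, and 1 and 3 without unstimulated replicate 1. In each fit with 1 array left out Ccrl2, Cxcr4 and Ltb4r1 were called, and Ccr7, Ccr4, Cx3cr1, Ccr2, Ccr1, C3ar1, C5ar2 and C5ar1 lost their call in at least 1. Without pairing, limma's adjusted p was 0.0517 for C3ar1 and 0.0971 for C5ar1.

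Other G protein-coupled receptors fell in 9 and rose in 5 of 38 members, and without pairing in 5 and 5. Gpr84, a receptor for medium-chain fatty acids, went from 9.68, 11.28 and 10.21 to 13.11, 13.03 and 13.30, and Hcar2, the niacin and hydroxybutyrate receptor, from 10.66, 10.89 and 10.09 to 12.05, 11.75 and 12. Cnr2, the cannabinoid receptor of immune cells, went from 10.46, 10.39 and 10.44 to 7.82, 8.62 and 7.63: its unstimulated arrays lay close together, and the log2 difference was -2.40 (SE 0.23, limma adjusted p = 0.00208). Lpar6, a lysophosphatidic acid receptor, fell by 1.58, Gpr171 by 1.52, Gpr160 by 1.44 and S1pr1, the sphingosine phosphate receptor, by 1.26. Cnr2 was the single member called in each fit with 1 array left out. The list had 0 rises and 1 fall without LPS replicate 3, 2 and 2 without LPS replicate 1, 1 and 2 without unstimulated replicate 1, 1 and 3 without unstimulated replicate 3, and 9 and 8 without unstimulated replicate 2. Limma without pairing gave an adjusted p of 0.126 for S1pr1.

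Uptake receptors moved in both directions. Of 37 scavenger, Fc and efferocytosis receptors 7 rose and 7 fell. Treml4, which binds dying cells, went from 8.68, 8.15 and 9.01 to 11.34, 9.93 and 11.43, Olr1, the oxidised LDL receptor LOX-1, from 10.71, 11.85 and 10.33 to 13.07, 13.07 and 13.12, and Marco, a scavenger receptor, rose by 1.31 (limma adjusted p = 0.0495, 0.12 without pairing). Trem1 (1.10) and Trem3 (1.27), which amplify inflammation, rose, and Trem2 (-0.39), a receptor for lipids and apoptotic cells, fell. Cd300lb (-2.08, SE 0.23), Cd300a (-1.13, SE 0.07), Itgb5, a partner of integrin alpha V (-1.22, SE 0.17), Tyro3, of the TAM receptors for apoptotic cells (-0.78), and Scarb1 (-0.68) fell. Of 28 C-type lectins 3 rose and 2 fell: Ly75, the endocytic receptor DEC-205, rose from 9.67, 9.98 and 8.46 to 11.54, 11.14 and 10.76, Clec4e (Mincle) by 1.45 (SE 0.24) and Clec5a by 0.56. The scavenger list had 2 rises and 2 falls without LPS replicate 3, 4 and 3 without LPS replicate 1, 5 and 4 without unstimulated replicate 1, 3 and 3 without unstimulated replicate 3, and 7 and 11 without unstimulated replicate 2. The lectin list had 0 rises without LPS replicate 1 or 3 and 1 without unstimulated replicate 1 or 3, and with 1 array left out it had falls only without LPS replicate 2 (3 members) or unstimulated replicate 2 (5 members). Neither of its 2 falls was called without pairing or after centring on reference genes. Of these genes Treml4, Trem3, Cd300lb and Cd300a passed in all fits with 1 array left out, and Olr1, Marco, Trem1, Trem2, Itgb5, Tyro3, Scarb1, Ly75, Clec4e and Clec5a failed in 1 or more. The adjusted p in limma without pairing was 0.0813 for Tyro3.

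**Figure D4:**
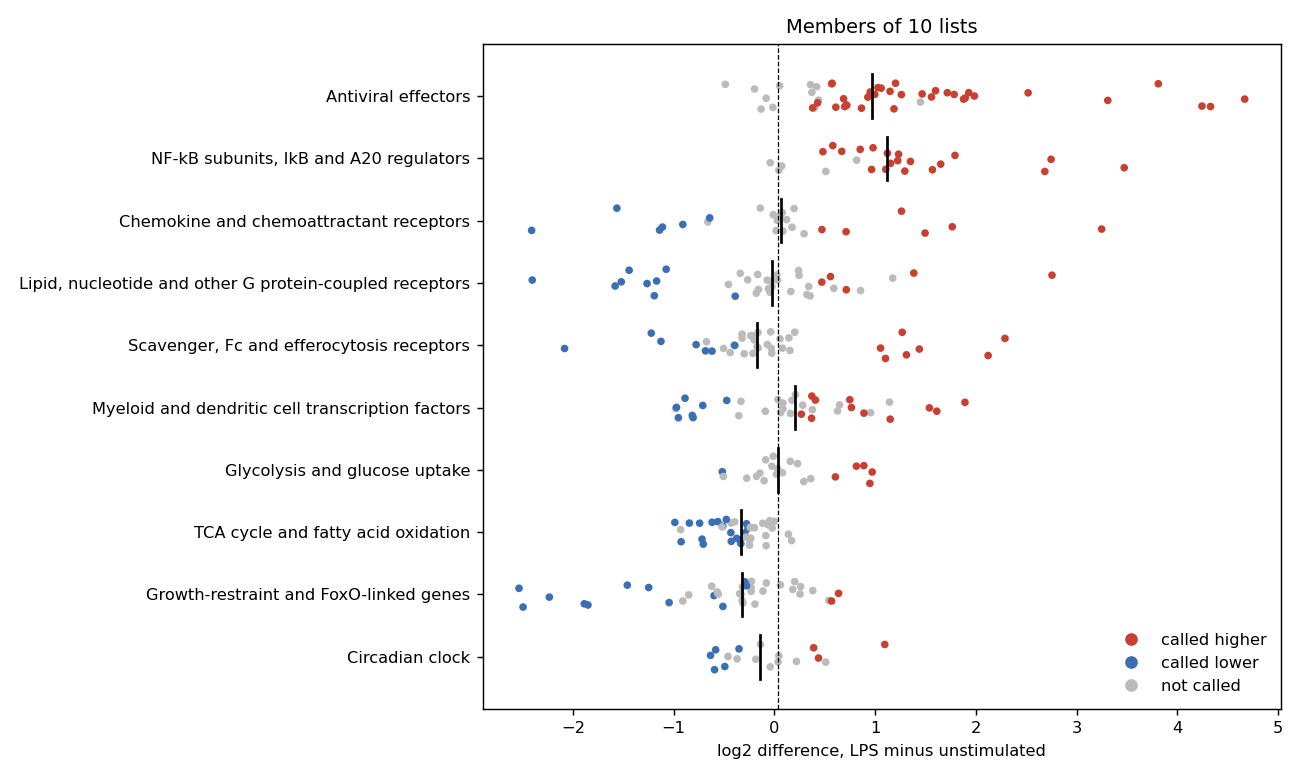
Log2 difference (LPS minus unstimulated) of each measured member of 10 lists, red where called higher, blue where called lower and grey where not called, with a black bar at each list's median and a dashed line at 0.04, the median of all genes. NF-kB regulators and antiviral effectors lie mostly to the right, TCA cycle genes and growth-restraint genes mostly to the left, and the receptor lists spread to both sides. The lists were made with earlier results of these data known.

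Effector enzymes rose in 10 of 26 members of the nitric oxide, itaconate and oxidative list and fell in 0 (limma, 1 at an unadjusted p under 0.05). Gch1, which makes the cofactor of nitric oxide synthase, rose by 1.58 (SE 0.12), Slc7a2, an arginine importer, by 1.83 (SE 0.47, limma adjusted p = 0.0437, 0.0869 without pairing), Slc7a11, the cystine importer, by 1.15 (SE 0.20), and Txnrd1 (1.21, SE 0.13), Sod2 (0.89, SE 0.20) and Hmox1 (0.75, SE 0.15), all of the oxidant defence, rose as well. Without LPS replicates 1 or 3 or unstimulated replicates 1 or 3 the list had 3 rises, with 1 fall without LPS replicate 3. In prostaglandin synthesis Ptges, the synthase that acts after Ptgs2, went from 7.96, 9.15 and 8.10 to 10.34, 10.73 and 10.25, and Tbxas1, thromboxane synthase, fell by 0.67. Hdc, which makes histamine, rose from 8.40, 10.35 and 8.04 to 11.98, 12.39 and 12.11, a 9.4-fold difference. Among cell death genes Fas, a death receptor, rose by 1.90 (SE 0.17) and Cflar, the caspase 8 inhibitor, by 1.72 (SE 0.06) with pair differences of 1.69, 1.78 and 1.70. Bcl2, a survival factor of mitochondria, went from 11.91, 11.32 and 11.58 to 10.07, 10.13 and 9.54, and Casp6 (-1.13), Casp9 (-0.72) and Bmf (-0.72) fell. With 1 array left out this list of 26 genes had 2 to 5 rises and 1 to 5 falls against 4 and 5 with all arrays, 2 and 1 without LPS replicate 1 or 3, 2 and 2 without unstimulated replicate 1 or 3, and 3 and 3 without LPS replicate 2. The inflammasome genes Nlrp3 (1.74, SE 0.11) and Casp4 (1.66, SE 0.14) and the sensors Nod2 (1.26, SE 0.08) and Ifih1 (2.28, SE 0.12) rose, while Pycard, the ASC adaptor (-1.10, SE 0.23), and Nlrp1b (-1.41, SE 0.24) fell. In all 12 of 25 cytosolic sensors rose and 5 fell, 3 of them without pairing. Falls numbered 0 without unstimulated replicate 3, 1 without LPS replicate 3, and 2 without LPS replicate 1 or unstimulated replicate 1. The calls of Gch1, Txnrd1, Ptges, Fas, Cflar, Bcl2, Nlrp3, Casp4, Nod2 and Ifih1 held in every fit with 1 array left out, and those of Slc7a2, Slc7a11, Sod2, Hmox1, Tbxas1, Hdc, Casp6, Casp9, Bmf, Pycard and Nlrp1b did not. Without pairing, limma's adjusted p was 0.0854 for Pycard.

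Transcripts of the TCA cycle and fatty acid oxidation were lower in part, in a list that also holds cytosolic enzymes such as Idh1. Of 37 genes of the TCA cycle and fatty acid oxidation 18 fell and 0 rose (limma, also 0 at an unadjusted p under 0.05), with a median of -0.33, and most of the falls were small. Idh1, the cytosolic isocitrate dehydrogenase, went from 12.41, 12.56 and 12.69 to 11.32, 11.79 and 11.58, Fh1, fumarase, from 11.33, 10.79 and 11.23 to 10.24, 10.32 and 10, and Acaa2 (-0.84), Acadm (-0.74) and Hadh (-0.72), enzymes of beta oxidation, fell. The succinate dehydrogenase genes Sdha (-0.34), Sdhb (-0.26), Sdhc (-0.28) and Sdhd (-0.48) fell. Cpt1a, which admits fatty acids to mitochondria, went from 11.77, 11.45 and 11.82 to 10.23, 11.48 and 10.54 and did not pass (limma adjusted p = 0.0664). The count was 10 without pairing, 8 after centring on reference genes and 22 after centring on sensory receptor genes. It was 0 without LPS replicate 3 or unstimulated replicate 3, 2 without LPS replicate 1 and 1 without unstimulated replicate 1, 14 without LPS replicate 2 and 25 without unstimulated replicate 2. The median lay between -0.41 and -0.25 in those fits. Limma without pairing gave an adjusted p of 0.0644 for Sdha, 0.0827 for Sdhb, 0.143 for Sdhc and 0.0608 for Sdhd.

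Of all genes 9.57% fell, and 6.86% without pairing. Of 77 mitochondrial ribosomal genes 22 (28.6%) fell (9 without pairing), with a median of -0.25. Of 85 genes of the respiratory chain and ATP synthase 12 (14.1%) fell (7 without pairing), with a median of -0.18. Cytosolic ribosomal genes had a median of -0.15, and 0 of 57 passed (limma; before adjustment 17 lower and 1 higher had p under 0.05). Scaling moved these counts: after centring on reference genes 11 mitochondrial ribosomal and 1 respiratory chain genes fell, and after centring on sensory receptor genes 35 and 29, with 15 cytosolic ribosomal genes. The mitochondrial ribosomal falls numbered 2 without LPS replicate 3 or unstimulated replicate 3, 3 without LPS replicate 1, 6 without unstimulated replicate 1 and 34 without unstimulated replicate 2. The respiratory chain falls numbered 0 without LPS replicate 3, unstimulated replicate 1 or unstimulated replicate 3, 1 without LPS replicate 1 and 19 without LPS replicate 2.

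Glucose and lipid genes changed in part. Of 21 glycolysis genes 5 rose and 1 fell: Hk2, which commits glucose to glycolysis (0.97, SE 0.13), Slc2a6 (0.95, SE 0.07), Pfkfb3, a regulator of phosphofructokinase (0.89, SE 0.17), Pfkl (0.81, SE 0.14) and Slc16a3, the lactate exporter (0.61, SE 0.12), rose. The median of the list was 0.03. Its rises numbered 1 without LPS replicate 3, 2 without LPS replicate 1 or unstimulated replicates 1 or 3, and 3 without pairing. Dgat2, the last step of triglyceride synthesis, rose from 9.19, 10.35 and 8.98 to 12.02, 11.01 and 11.66, with a response of 0.66 in replicate 2, while Lpin1, an earlier step, went from 11.15, 10.08 and 10.94 to 8.83, 8.48 and 8.0. Ch25h, which makes 25-hydroxycholesterol, an antiviral oxysterol, went from 7.34, 7.18 and 7.77 to 9.09, 9.86 and 10.09, a 4.77-fold rise. Nr1h3 (LXR alpha) rose by 1.11 (SE 0.18), its target Abcg1, a cholesterol exporter, fell by 0.75, and in sterol synthesis Idi1 rose by 0.94 (SE 0.08) and Dhcr7 fell by 1.21. Of 35 lysosome and autophagy genes 8 fell and 1, Sqstm1, rose. Atg7, of autophagosome formation (-0.70, SE 0.08), and Ulk1 (-0.58, SE 0.12) and Ulk2 (-0.77, SE 0.13), which start autophagy, fell. With LPS replicate 1 or 3 or unstimulated replicate 1 or 3 left out the list had 1 fall and Sqstm1 was not called. Its falls numbered 2 after centring on reference genes and 13 after centring on sensory receptor genes. With any 1 array left out Slc2a6, Ch25h, Idi1 and Atg7 were still called, and Hk2, Pfkfb3, Pfkl, Slc16a3, Dgat2, Lpin1, Nr1h3, Abcg1, Dhcr7, Ulk1 and Ulk2 were not in 1 or more of these fits. The adjusted p in limma without pairing was 0.0594 for Pfkfb3 and 0.0628 for Pfkl.

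Genes that restrain growth fell in 12 of 37 members and rose in 2, with a median of -0.32, and 12 fell without pairing too. Members were chosen with earlier results of these data known, so the share describes this list and not the class. Sesn1 went from 11.46, 10.33 and 11.83 to 8.81, 8.95 and 9.16 and Cables1 from 9.25, 8.68 and 9.60 to 6.61, 6.80 and 6.63, with no overlap and a smaller fall in replicate 2 for both. Tob1, an anti-proliferative adaptor of mRNA decay (-1.85, SE 0.22), Trp53inp1, a p53 target of autophagy (-1.89, SE 0.32), Tsc22d3, the glucocorticoid-induced GILZ (-1.46, SE 0.17), Mxd4, a MYC antagonist (-1.25, SE 0.15), and Foxo3 (-0.60, SE 0.08) fell. Txnip, an arrestin-like inhibitor of glucose uptake, had a difference of -0.32 and did not pass (limma adjusted p = 0.0787). Without LPS replicates 1 or 3 or unstimulated replicates 1 or 3 the falls numbered 6. The rises numbered 0 without LPS replicates 1 or 3 or unstimulated replicate 3, 1 without unstimulated replicate 1 and 4 without LPS replicate 2. Of 38 cell cycle genes 2 (5.3%) rose and 5 (13.2%) fell, against 5.19% and 9.57% of all genes, with a median of -0.17. Mki67, a proliferation antigen, rose from 10.04, 9.01 and 8.49 to 11.78, 11.24 and 11.59, while Ccnd1, cyclin D1 (-1.30, SE 0.24), and Rrm1 (-0.84, SE 0.12) fell. The list had 12 falls without unstimulated replicate 2, 3 without LPS replicate 2, 1 without unstimulated replicate 1 and 0 without the other arrays, and 2 without pairing. Of 17 clock genes Cry1, a repressor, rose from 8.88, 8.76 and 8.33 to 10.03, 9.22 and 10, and the output genes Dbp (-0.59, SE 0.15), Tef (-0.58, SE 0.12), Per3 (-0.49, SE 0.07) and Nr1d2 (-0.63, SE 0.13) fell. Leaving out LPS replicate 3 left 0 clock genes called, and leaving out LPS replicate 1 or unstimulated replicates 1 or 3 left 1. Of these genes Sesn1, Cables1, Tob1, Tsc22d3, Mxd4 and Mki67 passed in all fits with 1 array left out, and Trp53inp1, Foxo3, Ccnd1, Rrm1, Cry1, Dbp, Tef, Per3 and Nr1d2 failed in 1 or more. Without pairing, limma's adjusted p was 0.215 for Ccnd1, 0.0595 for Rrm1 and 0.0985 for Nr1d2.

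Transcription factors of myeloid and dendritic cells rose in 11 of 35 members and fell in 7. Ets2 (1.89, SE 0.29), Zeb1, from 8.24, 7.88 and 7.59 to 9.64, 10 and 8.92, Hivep2 (1.15, SE 0.10), Hivep1 (0.77, SE 0.11) and Ahr, the aryl hydrocarbon receptor (0.89, SE 0.20), rose. Hivep3 rose by 1.54 (SE 0.20) through the probe set used, while its other probe set gave -0.02. Runx1 went from 12.34, 12.31 and 12.21 to 11.29, 11.71 and 11.20, and Cebpa (-0.95, SE 0.19), Rara (-0.81, SE 0.08), Rxra (-0.81, SE 0.16) and Vdr (-0.97, SE 0.22), receptors of retinoids and vitamin D with their myeloid partner, fell. The median was 0.21, and 3 rises and 4 falls were left without LPS replicate 3, 5 and 5 without LPS replicate 1, 7 and 3 without unstimulated replicate 1, and 4 and 3 without unstimulated replicate 3. Of 25 histone demethylases Kdm6b, an H3K27 demethylase induced by NF-kB, had values of 9.26, 8.79 and 8.98 and 10.57, 9.22 and 10.44, with a small response in replicate 2 (limma adjusted p = 0.0359, 0.0691 without pairing). Riox2 (0.92, SE 0.14), Kdm4a (0.50, SE 0.12) and Kdm5c (0.47, SE 0.11) were the other members that rose, and without LPS replicate 3 or unstimulated replicate 3 0 of these 4 were called, 1 without LPS replicate 1 or unstimulated replicate 1, and 2 without pairing. Without unstimulated replicate 2 there were 5 demethylases lower. In the Notch pathway the ligand Jag1 went from 6.90, 7.73 and 6.87 to 8.37, 9.0 and 8.19, with similar responses in all replicates, and Dll4 rose by 0.48 (SE 0.09), while Lfng, a glycosyltransferase of Notch, fell by 0.85. In the TGF-beta pathway Skil, a SMAD co-repressor, rose from 9.40, 9.86 and 8.89 to 10.88, 10.91 and 10.77 and Tgif1 by 0.91 (SE 0.12), while Ski fell by 0.60 and the receptor Tgfbr2 by 0.96. Of cytokine receptors Il6ra, the IL-6 receptor, went from 10.32, 9.91 and 10.01 to 8.78, 8.94 and 8.80, and Il1rap (0.66, SE 0.07) and Tnfrsf1b (0.74, SE 0.11) rose. The calls of Zeb1, Hivep2, Hivep3, Runx1, Rara, Jag1, Skil, Tgif1, Ski, Il6ra and Il1rap held in every fit with 1 array left out, and those of Ets2, Hivep1, Ahr, Cebpa, Rxra, Vdr, Kdm6b, Riox2, Kdm4a, Kdm5c, Dll4, Lfng, Tgfbr2 and Tnfrsf1b did not. Limma without pairing gave an adjusted p of 0.179 for Ahr, 0.082 for Rxra, 0.14 for Vdr, 0.0803 for Kdm5c and 0.0584 for Lfng.

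**Figure D5:**
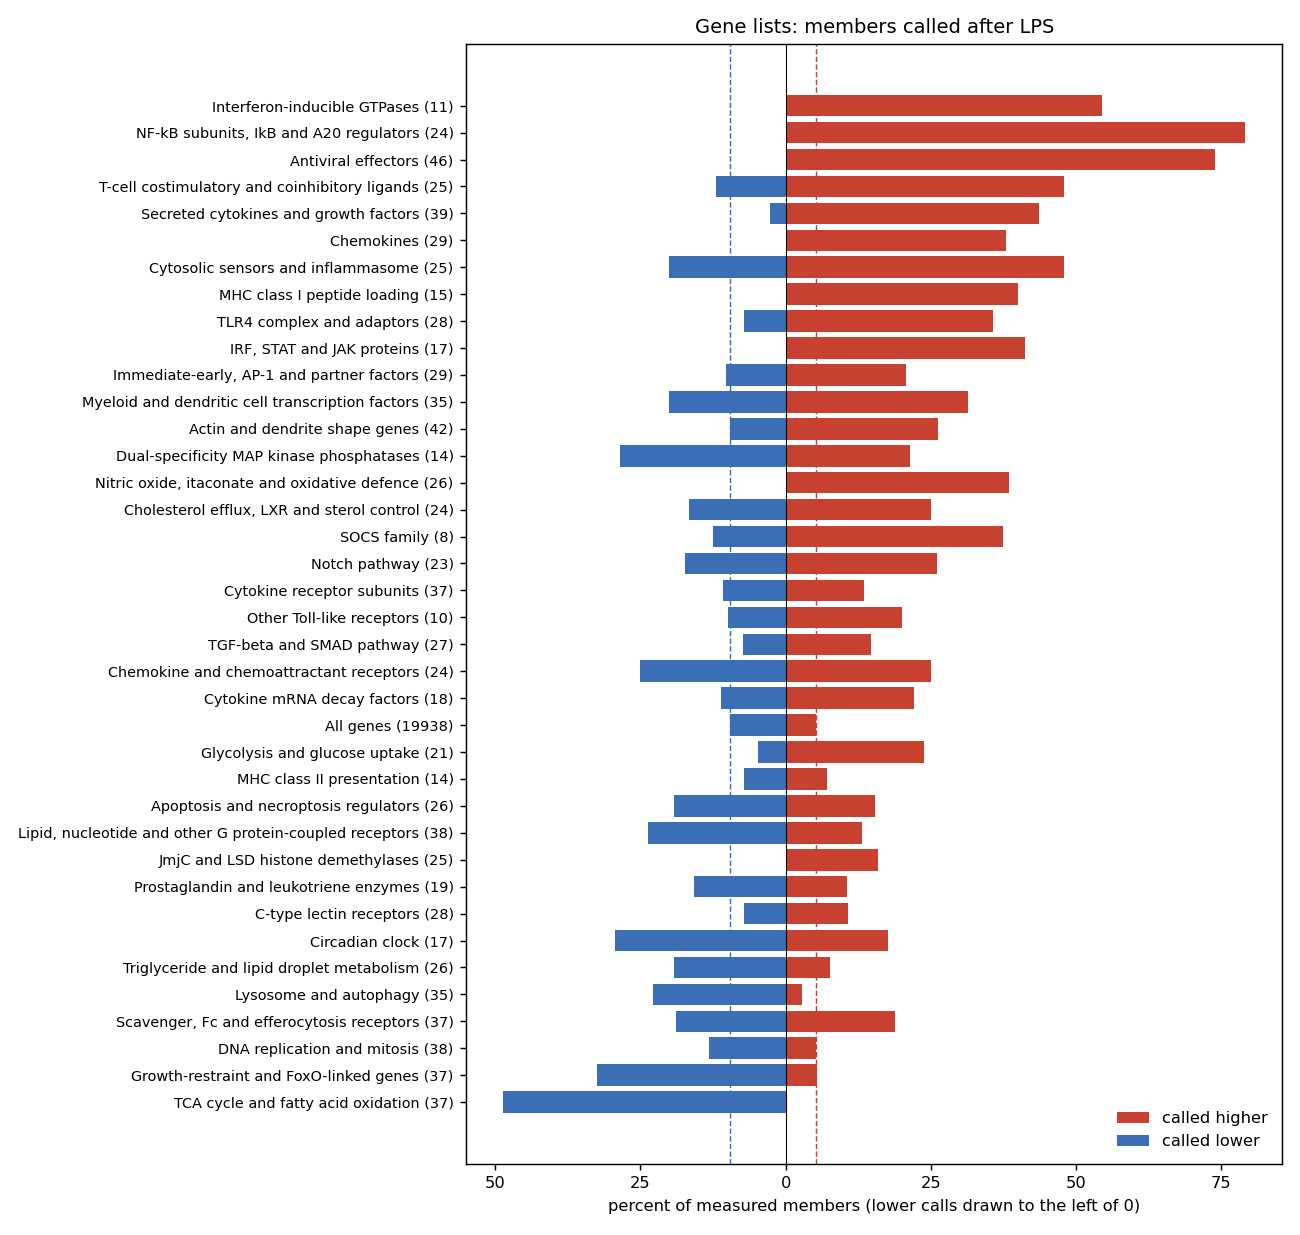
Percent of measured members called higher (red, right of 0) and lower (blue, left of 0) in each list, with the number of members in brackets and the lists in order of their median log2 difference. Dashed lines mark the 5.19% and 9.57% of all genes called higher and lower. NF-kB regulators reach 79.2% higher, antiviral effectors 73.9% higher and TCA cycle genes 48.6% lower. Earlier results of these data were known when the lists were made, so the shares describe the lists only.

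Dendritic cell markers had a median of -0.01, with 1 of 18 lower, and the log2 of their summed signal was 15.73 to 16.36 without LPS and 15.77 to 16.19 with LPS. Neutrophil and precursor markers had a median of 0.84, with 2 of 17 higher (before adjustment 8 had a limma p under 0.05 in that direction and 0 in the other). The log2 of their summed signal was 15.19, 14.89 and 14.61 in unstimulated replicates 1, 2 and 3 and 15.76, 15.09 and 15.54 after LPS, higher with LPS in each replicate. Sums in this paragraph were taken on the linear scale, so bright members weigh most. Of these markers Mmp8 and Lcn2 had the highest group means, 13.63 and 12.54 without LPS and 13.42 and 13.79 with LPS. The 2 called were Lcn2, the siderophore binder, from 12.53, 13.11 and 11.99 to 13.82, 13.61 and 13.95, and Csf3r (0.95, SE 0.20). Without LPS replicate 1, LPS replicate 3 or unstimulated replicates 1 or 3 there were 0 called, and 6 without unstimulated replicate 2. S100a9, the neutrophil calprotectin subunit, differed between replicates more than with LPS, with 11.04, 7.81 and 9.0 and 11.87, 8.36 and 10.82 (limma adjusted p = 0.187). Macrophage and monocyte markers had a median of -0.16 with 1 higher (Vcam1) and 1 lower (Ccr2), and sums of 16.01 to 16.44 without and 15.95 to 16.25 with LPS. Mast cell and basophil markers had 3 higher (Hdc, Il13 and Mitf) and 1 lower (Kit), with sums of 13.94 to 14.21 and 14.46 to 14.53, plasmacytoid markers 1 higher, erythroid and megakaryocyte markers 1 higher (Car2), progenitor markers 3 lower (Kit, Cd34 and Sox4) and lymphocyte markers 0 of 15 (limma; before adjustment 2 higher and 1 lower had p under 0.05). With 1 array left out dendritic cell markers had 0 to 4 lower, and macrophage and monocyte markers 0 to 1 higher and 0 to 3 lower. In those fits mast cell and basophil markers had 0 to 4 higher and 0 to 1 lower, and progenitor markers 0 to 4 lower. Plasmacytoid, erythroid and megakaryocyte, and lymphocyte markers each had 0 to 1 higher. The part of any change in cell make-up in the results above was not tested.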

How the data were processed

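RNA from 9 dendritic cell samples was labelled by the Affymetrix whole-transcript sense target assay, per the labels' protocols, and hybridised to 1-colour arrays. The deposited log2 values came from RMA, which the submitters' processing notes name, a method that corrects background, normalizes arrays together and gives each probe set 1 value. Its version and settings, and which arrays were normalized together, are not given in the sources used here. Array medians over all 35556 probe sets lay between 7.217 and 7.315. RMA levels differ between probe sets for reasons other than abundance, so differences are taken within a gene, and levels of different genes are set against a threshold or summed only in the check of cell type markers, which is approximate. Precision is limited by the number of arrays.

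Of 35556 probe sets 21789 had a single gene in the platform annotation, 1621 had several and 12146 had no gene there. Symbols were updated through Entrez numbers to RefSeq (GRCm38.p6) for 21698, and 91 kept the annotation's symbol. For each of 19938 genes the probe set with the highest mean was used (999 genes had several).

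Limma 3.58.1 (R 4.3.3; lmFit and eBayes, two-sided, Benjamini-Hochberg over all genes, threshold 0.05) was fitted on the log2 values of all 9 arrays with group and replicate number as terms, which leaves 4 residual degrees of freedom, and gave LPS minus unstimulated in wild-type cells. Independent cultures are named in the design text and biological replicates in the labels, but neither ties a replicate number to 1 culture across groups. The pairing was checked on deviations from group means: they correlated by 0.14 to 0.48 in the 9 same-numbered pairs of arrays (0.29 to 0.41 in the 3 wild-type pairs) and by -0.41 to 0.25 in 18 other pairs. If replicates were split from 1 culture, p-values measure only the spread between arrays. The procedure was also run on simulated data with equal noise in all arrays and the same response in every replicate. Such data do not cover replicates that respond differently.

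The genes named are the 20 largest changes in each direction whose groups did not overlap, members of 46 gene lists (1049 distinct measured genes) and 10 symbol families, the 10 called genes with the widest range of pair differences, and the 10 called genes changed at least 2-fold with their smallest standard deviation. The lists and the choice of members were made with earlier results of these data known. Alternatives were the fit without pairing, wild-type arrays alone, array weights, other scalings, a filter on dim genes, a mean-variance trend, replicate as a random block, the lowest probe set of a gene, and each array or replicate left out. Promoters and microRNA sequences are from RefSeq (GRCm38.p6), matched by Entrez number. A promoter was matched for 15563 genes, and 4375 had none in the table used.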

Additional observations from a re-analysis of the deposited data

How the results depend on the processing

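The counts of 1035 genes higher and 1908 lower (347 and 273 at least 2-fold) came from the fit paired by replicate number. Without the replicate block 796 were higher and 1368 lower (295 and 240 at least 2-fold), and 314 of the 419 named or listed genes that passed were still called. With array weights, whose estimation stopped before convergence, 581 were higher and 967 lower. Centring on reference genes gave 917 lower and centring on sensory receptor genes 2876 lower. The dim-gene filter kept 10326 genes and shifted the median log2 difference over genes by -0.126. Leaving out 1 array or 1 replicate pair gave 58 to 2019 higher, 7 to 3540 lower, 58 to 427 at least 2-fold higher and 7 to 580 at least 2-fold lower. The lowest counts came without replicate 3, where 34 of the 419 genes were called, then without replicate 1 (93 higher, 20 lower), and the highest without replicate 2. These fits have fewer samples. Of the 419 genes 1 reversed in any alternative: Hivep3 (-0.02 with its lowest probe set). The 6 wild-type arrays alone called 345 of them, median centring 360, quantile normalization 396 and a random block 336. The causes were not tested. The 3 arrays a group limit precision, and signal over background could not be checked, since the deposited values carry no detection call.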

Other observations

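Several genes known for iron handling were measured outside the lists above, and were chosen after their values were seen. Hamp, the peptide hormone hepcidin that degrades ferroportin, had log2 values of 5.12, 6.98 and 5.36 in unstimulated replicates 1, 2 and 3 and 8.08, 9.0 and 7.32 after LPS. The groups did not overlap, and the difference of 2.31 (SE 0.27) had a limma adjusted p of 0.00374 with pairing and 0.0829 without. Slc40a1, ferroportin, the iron exporter, had 8.54, 6.50 and 9.11 and 7.43, 6.03 and 6.77, with overlapping groups and a difference of -1.30 (limma adjusted p = 0.0474, 0.27 without pairing). Slc39a14, an importer of zinc and iron, rose by 1.47 (SE 0.17), Slc11a2, the importer DMT1, by 0.92 (SE 0.17) and Slc25a37, the mitochondrial iron importer mitoferrin, by 1.90 (SE 0.32). Fth1 and Ftl1, the ferritin chains, had differences of -0.02 and -0.09 and the transferrin receptor Tfrc of 0.18, and none of these 3 passed (limma adjusted p = 0.853, 0.332 and 0.733).

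Other changes outside the lists, also chosen after their values were seen, were those of Calcrl, the receptor for adrenomedullin and CGRP, from 8.81, 9.34 and 8.42 to 11.88, 12.16 and 12, and Cd69, an early activation antigen, from 10.08, 10.63 and 10.32 to 12.63, 13.53 and 12.96. Cd69 had the second smallest adjusted p of all genes (0.000101, limma). Of 362 solute carriers 24 rose and 47 fell, shares somewhat above the 5.19% and 9.57% of all genes. Without pairing 20 rose and 34 fell. The family had 8 rises and 9 falls without LPS replicate 3, and 10 and 9 without unstimulated replicate 3. It had 10 and 16 without LPS replicate 1, and 10 and 15 without unstimulated replicate 1. Among the solute carriers Slc16a10, a transporter of aromatic amino acids, rose by 2.65 (SE 0.19) and Slco3a1, an organic anion transporter, by 2.01 (SE 0.21). Of 84 genes picked by Rab and Arf symbols, not all of them GTPases, 10 (11.9%) rose and 11 (13.1%) fell. The shares over all genes were 5.19% and 9.57%. Without pairing 9 of the 84 rose and 10 fell. Falls numbered 5 without LPS replicate 1 or 3 and 6 without unstimulated replicate 1. They numbered 4 without unstimulated replicate 3 and 21 without unstimulated replicate 2. Rab20, of the phagosome, rose by 1.51 (SE 0.17). Rab11fip1, a binding partner of Rab11 at recycling endosomes and not itself a GTPase, rose by 1.86 (SE 0.26).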
